A study of Mus musculus with 19 samples.

Results

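The complement components and regulators described here are 9 mouse genes, C3, C4b, Cfb, Cfd, Masp1, C6, C7, Serping1 and Cd55, of the 24343 gene symbols in the deposited expression tables. They were chosen by name, with earlier results of the same libraries known, and their levels in all 6 groups of cell population and genotype were part of that choice. The levels and differences of these 9 genes are therefore given as a description, with no p-value, and tests are reported for 48 other complement genes. Stromal cells carried nearly all of the C3, C7, Cfb, Masp1 and Serping1 transcript, and in stromal cells of toxin-treated Lgr5-DTR-eGFP mice the C7 level was 10.3 FPKM, against 115 FPKM in wild type, and the C3 level 32.6 FPKM, against 103.5 FPKM. FPKM is fragments scaled to transcript length and to the mapped fragments of the library, a scale on which levels of different genes can be compared.

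Complement is a cascade of plasma and tissue proteins that marks microbes and damaged cells. The classical, lectin and alternative routes each build an enzyme that cleaves C3, after which C5 to C9 can assemble into a pore in a membrane. Soluble inhibitors such as the C1 inhibitor and membrane inhibitors such as CD55 restrain the cascade on host cells. The liver supplies most of the plasma pool, and fibroblasts, macrophages and epithelia also make components locally.

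RNA sequencing was made on basal, luminal and stromal cells sorted by flow cytometry from mouse anterior prostates. Lgr5-DTR-eGFP mice carry the diphtheria toxin receptor with a green fluorescent protein at Lgr5, the gene for an R-spondin receptor, so that toxin acts on cells that express Lgr5. The treated animals were Lgr5-DTR-eGFP mice given diphtheria toxin, with 4 stromal, 3 basal and 3 luminal libraries, and the controls were wild type mice, with 3 libraries of each population. The study set out to ask how gene expression changes once Lgr5-expressing stromal cells are ablated. Genotype, toxin and animal source cannot be told apart, since the labels name different sources for the Lgr5-DTR-eGFP and the C57BL/6 mice and do not say whether wild type mice received toxin. Age and toxin dose are not given in the sources used here. Whether libraries of 1 group stem from different animals is not stated, and the p-values then reflect the spread among these libraries alone, which may be technical.

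The 19 libraries held 5.26 to 9.38 gigabases on annotated transcripts, and 9209 to 10819 genes reached 1 FPKM in each. Lgr5 was at 0.501 to 1.32 FPKM in Lgr5-DTR-eGFP stromal libraries, against 25.8 to 77.6 FPKM in wild type stromal libraries, though the receptor sits in that gene and a lower level need not mean fewer cells. In bulk RNA of a sorted population, fewer cells of a type and less RNA per cell cannot be told apart. The sorted populations carried their own markers: 12 basal markers averaged 8.03 on the log2(FPKM + 1) scale in wild type basal cells, 11 luminal markers 7.99 in wild type luminal cells and 14 fibroblast markers 7.94 in wild type stromal cells. Markers of other populations were also present. The 11 luminal markers averaged 5.75 in wild type basal and 3.55 in wild type stromal cells, and the 12 basal markers 3.39 in wild type luminal cells. Of the 19 libraries, 7 carried status entries of a kind that the other 12 lacked, and these 7 are called the processing set below. The set held 1 stromal library, replicate 3 of Lgr5-DTR-eGFP.

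The promoters of C3, C7 and Cd55 are printed because these genes had the clearest genotype differences in stromal and basal cells. Each runs from 250 bases before to 50 bases after the annotated start, 5′ to 3′ on the gene's own strand, from RefSeq on GRCm38.p6. Capitals mark matches, on either strand, to TATAAA (the TATA box), GGGA and CC with any 4 bases between them (an NF-kappaB consensus), TTGCNNAA (a C/EBP consensus) and GGGCGG (the GC box).
C3 promoter (chr17:57228087-57228386, minus strand): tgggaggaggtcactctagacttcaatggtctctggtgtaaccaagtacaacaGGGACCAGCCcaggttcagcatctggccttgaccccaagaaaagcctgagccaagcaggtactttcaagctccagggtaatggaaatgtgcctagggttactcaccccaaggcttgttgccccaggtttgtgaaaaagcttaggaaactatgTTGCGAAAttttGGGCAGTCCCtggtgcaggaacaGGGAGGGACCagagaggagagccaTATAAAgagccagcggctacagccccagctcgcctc
C7 promoter (chr15:5063724-5064023, minus strand): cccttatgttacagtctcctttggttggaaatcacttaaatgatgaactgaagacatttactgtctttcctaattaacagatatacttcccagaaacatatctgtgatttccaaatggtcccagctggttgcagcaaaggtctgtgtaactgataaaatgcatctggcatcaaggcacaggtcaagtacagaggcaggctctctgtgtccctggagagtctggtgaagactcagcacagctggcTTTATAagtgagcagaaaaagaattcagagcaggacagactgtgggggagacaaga
Cd55 promoter (chr1:130462695-130462994, minus strand): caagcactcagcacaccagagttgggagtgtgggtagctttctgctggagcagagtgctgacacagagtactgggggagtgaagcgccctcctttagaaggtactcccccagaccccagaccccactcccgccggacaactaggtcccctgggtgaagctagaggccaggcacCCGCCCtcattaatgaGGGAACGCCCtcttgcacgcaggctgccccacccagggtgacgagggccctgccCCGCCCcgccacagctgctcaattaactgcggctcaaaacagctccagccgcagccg
The C3 promoter held 5 matches, of which 3 were to the NF-kappaB consensus (first bases at positions -197, -33 and -10 from the start), 1 to the C/EBP consensus (position -45) and 1 to the TATA box (position 14). The C7 promoter held 1 match, a TATA box on the opposite strand, and the Cd55 promoter 1 NF-kappaB match and 2 GC boxes. No marked matches overlapped each other. Of 27025 mouse promoters of the same length, 20.5% held the NF-kappaB letters, 10.8% the C/EBP letters, 14.2% the TATA box and 35.9% the GC box. None of these 3 promoters held GAAA, any 2 bases and GAAA again (an interferon-stimulated response element), TGANTCA (an AP-1 site) or AGAACA (part of a steroid receptor element), which occurred in 3.49%, 7.93% and 19.02% of all promoters. A match is a description of the letters and not a site of binding. RefSeq promoters were matched for C3, C6, C7, Cd55 and Cfd, 5 of the 9 genes, and not for C4b, Cfb, Masp1 and Serping1.

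C3, the protein on which all complement routes converge, was a stromal transcript and was lower in Lgr5-DTR-eGFP stromal cells. C3 (NM_009778) spans bases 57203967 to 57228136 of chromosome 17 (mm10, as all positions of genes below) and overlaps the microRNA gene Mir6978. It measured 32.2, 45.1, 22.3 and 30.9 FPKM in the Lgr5-DTR-eGFP stromal libraries, against 123.5, 103.9 and 83.1 FPKM in the wild type stromal libraries. All 4 Lgr5-DTR-eGFP libraries lay below all 3 wild type libraries. The log2 difference, Lgr5-DTR-eGFP minus wild type, was -1.66 (SE 0.25), and the wild type mean was 3.17 times the Lgr5-DTR-eGFP mean. Fibroblast markers moved the same way, with a mean of 6.91 ± 0.21 on the log2(FPKM + 1) scale in Lgr5-DTR-eGFP stromal cells (SD, n = 4) and 7.94 ± 0.11 in wild type stromal cells (SD, n = 3). Their summed level was 5969 to 8073 FPKM in Lgr5-DTR-eGFP libraries and 14219 to 17640 FPKM in wild type libraries, and all 14 markers reached 1 FPKM in both groups. The 10 smooth muscle markers moved the other way, at 4.74 ± 0.17 in Lgr5-DTR-eGFP stromal cells (SD, n = 4; range 4.57 to 4.95) and 4.19 ± 0.24 in wild type stromal cells (SD, n = 3; range 4.05 to 4.47). The part of either list in the stromal C3 value was not tested.

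In epithelial cells C3 was low. Basal libraries held 1.61, 1.08 and 1.65 FPKM in Lgr5-DTR-eGFP mice, against 3.18, 2.44 and 2.04 FPKM in wild type mice. The basal groups did not overlap, with a log2 difference of -0.53 (SE 0.21). The mean of the fibroblast markers was lower there too, at 1.33 ± 0.16 on the log2(FPKM + 1) scale in Lgr5-DTR-eGFP basal cells and 1.60 ± 0.04 in wild type basal cells (SD, n = 3 each), with ranges apart. Of the 14, 2 reached 1 FPKM in Lgr5-DTR-eGFP and 4 in wild type, and their sum was 569.5 to 1072 FPKM in Lgr5-DTR-eGFP and 988 to 1221 FPKM in wild type. The 2 were Dcn (decorin) and Gsn (gelsolin), and wild type added Col3a1 and Fbln1. Basal Dcn was at 17.6% of its stromal level in Lgr5-DTR-eGFP and 20.6% in wild type, where the medians of the 14 were 0.133% and 0.180%. Gsn went the other way, at 316 FPKM in Lgr5-DTR-eGFP and 297 FPKM in wild type basal cells. The part of the fibroblast markers in basal C3 was not tested. Luminal libraries stayed at or below 0.404 FPKM in Lgr5-DTR-eGFP mice and 0.378 FPKM in wild type mice.

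C4b, a C4 gene of the classical and lectin routes, was shared between stromal and luminal cells. It lies on chromosome 17 at 34728381 to 34743897 (NM_009780), and reads shared with its near-identical copy C4a make its level uncertain, although C4a itself was at most 1.36 FPKM. Stromal C4b measured 14.01, 20.35, 25.5 and 11.8 FPKM in Lgr5-DTR-eGFP libraries, against 14.4, 13.2 and 21.2 FPKM in wild type libraries. Luminal C4b measured 11.9, 16.0 and 12.2 FPKM in Lgr5-DTR-eGFP libraries, against 7.14, 7.29 and 16.1 FPKM in wild type libraries. The groups overlapped in both populations, with log2 differences of 0.10 (SE 0.29) in stromal and 0.44 (SE 0.29) in luminal cells. In basal cells C4b was at most 0.118 FPKM in Lgr5-DTR-eGFP libraries and 0.0829 FPKM in wild type libraries.

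**Figure D1:**
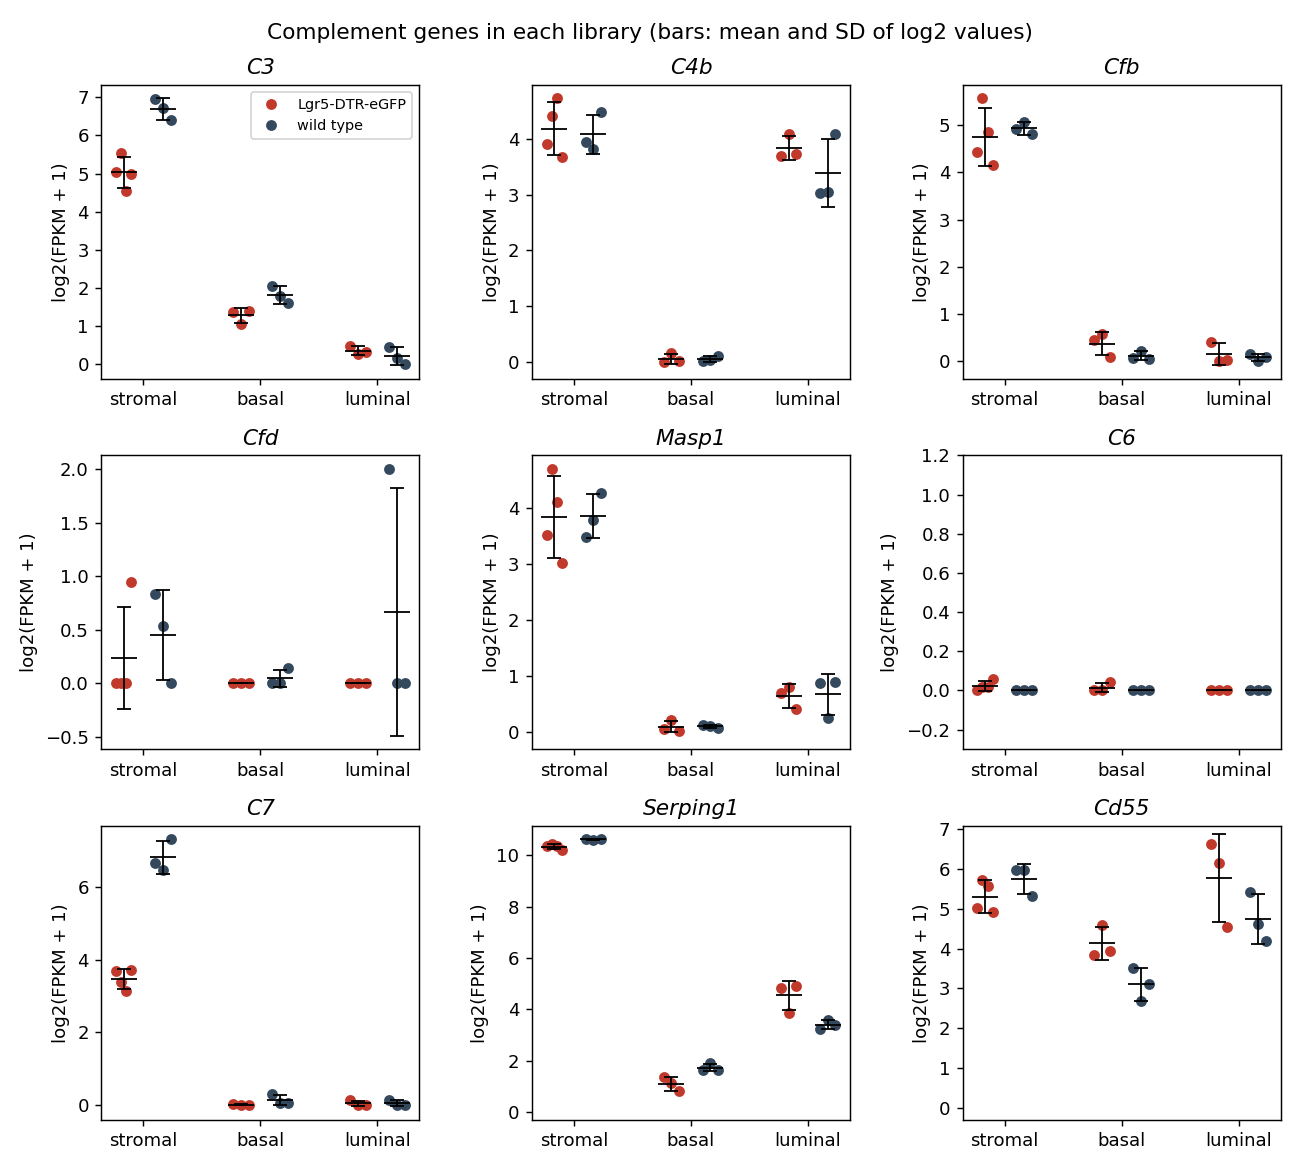
Level of the 9 complement genes as log2(FPKM + 1) in each of the 19 libraries, 1 panel per gene with its own axis range, with Lgr5-DTR-eGFP left of wild type in each population; points are libraries, and lines with bars give the mean and SD of a group's log2 values. In FPKM, C7 stands at 7.74 to 12.1 FPKM in Lgr5-DTR-eGFP stromal libraries, against 87.4 to 158 FPKM in wild type, while C6 and Cfd lie near 0.

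Among the proteases, Cfb and Masp1 were stromal and had overlapping genotypes, and Cfd was hardly detected. Cfb, the factor B protease of the alternative route, lies on chromosome 17 at 34856374 to 34862514 and overlaps Mir6972. It measured 20.5, 46.5, 27.8 and 16.7 FPKM in Lgr5-DTR-eGFP stromal libraries, against 29.3, 32.7 and 26.9 FPKM in wild type. The Lgr5-DTR-eGFP libraries lay on both sides of the wild type range, and the log2 difference was -0.19 (SE 0.31). Of its 2 annotated transcripts, NM_008198 took all of the stromal signal and NM_001142706 was listed at 0 in every stromal library. In basal and luminal cells Cfb stayed at or below 0.490 FPKM.

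Masp1, a gene of the serine proteases that drive the lectin route, lies on chromosome 16 at 23451785 to 23520590 (NM_008555). Its stromal level was 10.5, 25.1, 16.2 and 7.14 FPKM in Lgr5-DTR-eGFP libraries, against 10.3, 12.9 and 18.4 FPKM in wild type libraries. The wild type range lay inside the Lgr5-DTR-eGFP range, with a log2 difference of -0.02 (SE 0.37). In luminal cells it averaged 0.576 ± 0.222 FPKM in Lgr5-DTR-eGFP mice and 0.635 ± 0.379 FPKM in wild type mice (SD, n = 3 each), and in basal cells it stayed at or below 0.163 FPKM.

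Cfd encodes factor D, also called adipsin, which activates factor B and is abundant in fat cells. It lies on chromosome 10 at 79890853 to 79892660 and overlaps Bc1. It was listed at 0 in 3 of 4 Lgr5-DTR-eGFP stromal libraries and at 0.926 FPKM in the other, against 0.779, 0.446 and 0 FPKM in wild type stromal libraries. The highest value anywhere was 3.00 FPKM, in 1 wild type luminal library, beside 2 wild type and 3 Lgr5-DTR-eGFP luminal libraries listed at 0. Of 9 adipocyte markers, 2 or 3 reached 1 FPKM in any group, and their summed level was 3.63 to 9.40 FPKM in Lgr5-DTR-eGFP stromal libraries and 8.21 to 15.7 FPKM in wild type stromal libraries. Adipoq, Plin1, Lep, Cidec, Retn and Plin4, genes that define fat cells, stayed below 1 FPKM in every library.

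C7 had the widest genotype difference of the 9 genes. Its protein joins the membrane attack complex after C5b and C6 and anchors it to the membrane. C7 (NM_001243837) lies on chromosome 15 at 4988762 to 5063773. It measured 11.9, 9.45, 7.74 and 12.1 FPKM in Lgr5-DTR-eGFP stromal libraries, against 100.6, 87.4 and 158 FPKM in wild type stromal libraries. Every Lgr5-DTR-eGFP library lay below every wild type library, and the wild type mean was 11.2 times the Lgr5-DTR-eGFP mean. The log2 difference was -3.34 (SE 0.26) and ranged from -3.51 to -3.09 over 14 alternative settings, which included leaving out each library and the processing set as a covariate. The fibroblast markers given beside C3 moved the same way and the smooth muscle markers the other way, and their part in the C7 value was not tested.

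In epithelial cells C7 was near 0, at 0.0142 FPKM or less in Lgr5-DTR-eGFP basal libraries and 0.0407 to 0.230 FPKM in wild type basal libraries. In luminal cells 1 library of each genotype showed it, at 0.0945 FPKM in Lgr5-DTR-eGFP and 0.104 FPKM in wild type, and the others were listed at 0. C6, the neighbour of C7 in the assembly of the pore, lies on the same chromosome at 4727210 to 4804045 (NM_016704). It was at 0, 0.0115, 0.0108 and 0.0425 FPKM in Lgr5-DTR-eGFP stromal libraries, 0.0305 FPKM in 1 Lgr5-DTR-eGFP basal library, and 0 in every wild type library. These values are too low to compare. Among the other genes of the complex, C8g reached 1 FPKM, with 3.12 ± 2.08 FPKM in Lgr5-DTR-eGFP luminal cells and 2.68 ± 0.451 FPKM in wild type luminal cells (SD, n = 3 each), while Hc (the gene for C5), C8a, C8b and C9 stayed below 1 FPKM in every library.

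Of the regulators, Serping1 was the most abundant of the 9 genes and differed in direction between populations. It encodes the C1 inhibitor, a serpin that blocks C1r, C1s and the MASP proteases. Serping1 (NM_009776) lies on chromosome 2 at 84765360 to 84775429. It measured 1324, 1405, 1305 and 1180 FPKM in Lgr5-DTR-eGFP stromal libraries, against 1605, 1565 and 1605 FPKM in wild type stromal libraries. The groups did not overlap, although the difference was small, at -0.29 on the log2 scale (SE 0.15) where the median of all genes tested was -0.09. Scaling the libraries moved the median of all genes to 0.02 (trimmed means) or 0.03 (quantiles), and the smallest Serping1 difference under any setting was -0.11.

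Luminal Serping1 was 27.8, 13.7 and 29.1 FPKM in Lgr5-DTR-eGFP libraries, against 8.37, 10.9 and 9.45 FPKM in wild type libraries. All 3 Lgr5-DTR-eGFP luminal libraries lay above all 3 wild type libraries, with a log2 difference of 1.15 (SE 0.28) where the median of all genes tested was 0.10. Basal Serping1 was 1.57, 1.16 and 0.747 FPKM in Lgr5-DTR-eGFP libraries, against 2.12, 2.74 and 2.14 FPKM in wild type libraries, which did not overlap and gave a log2 difference of -0.64 (SE 0.21). The mean of the basal fibroblast markers given beside C3 was also lower in Lgr5-DTR-eGFP. So was that of the 10 smooth muscle markers, at 1.73 ± 0.11 in Lgr5-DTR-eGFP basal cells and 2.29 ± 0.05 in wild type basal cells (log2 scale, SD, n = 3 each). Of these 10, Myh11, Actg2, Des, Mylk and Lmod1 stayed below 1 FPKM in every basal library. The part of either list in basal Serping1 was not tested. The difference between populations was not tested, because the gene was chosen with these levels known.

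Markers of several other cell types had higher means in Lgr5-DTR-eGFP luminal cells. The 14 fibroblast markers averaged 2.15 ± 0.23 on the log2(FPKM + 1) scale in Lgr5-DTR-eGFP luminal cells and 1.73 ± 0.01 in wild type luminal cells (SD, n = 3 each), and 6 of the 14 reached 1 FPKM in each genotype. The 7 pericyte markers averaged 2.40 ± 0.44 in Lgr5-DTR-eGFP and 1.67 ± 0.32 in wild type, the 8 Schwann cell markers 3.27 ± 0.37 and 2.61 ± 0.29, and the 13 macrophage markers 1.68 ± 0.52 and 1.03 ± 0.14, in the same order. The pericyte, Schwann cell and macrophage ranges overlapped between genotypes, and the fibroblast ranges did not. The 11 luminal markers were lower, at 7.79 ± 0.07 in Lgr5-DTR-eGFP (range 7.71 to 7.84) and 7.99 ± 0.07 in wild type (range 7.92 to 8.04), and summed to 14951 to 18702 FPKM in Lgr5-DTR-eGFP and 24576 to 27428 FPKM in wild type. The 7 erythrocyte markers averaged 3.14 ± 0.82 in Lgr5-DTR-eGFP and 4.20 ± 0.90 in wild type, with overlapping ranges. The luminal level of Serping1 was 1.80% of the stromal level in Lgr5-DTR-eGFP mice and 0.602% in wild type mice. For the 14 fibroblast markers the median of the same share was 0.317% in Lgr5-DTR-eGFP mice (range 0.0617% to 76.8%) and 0.208% in wild type mice (range 0.0629% to 9.68%). The highest share in both genotypes belonged to Pdgfrb, a receptor that pericytes also carry. The collagen gene Col1a1 had a share of 20.8% in Lgr5-DTR-eGFP and 1.68% in wild type, whereas Dcn (decorin) had 0.447% and 0.517% in that order. The part of these cells in luminal Serping1 was not tested.

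**Figure D2:**
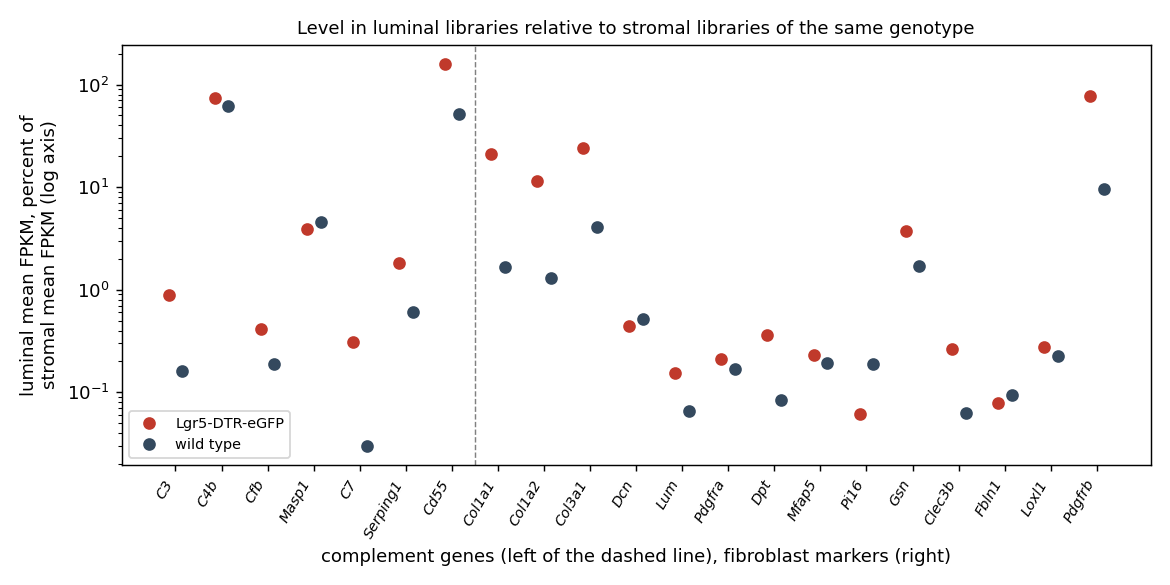
Luminal level as a percent of the stromal level of the same genotype (log axis) for the 7 complement genes with a stromal signal above 1 FPKM and the 14 fibroblast markers, Lgr5-DTR-eGFP left of wild type. Each point is 1 gene, from the ratio of group means. C4b and Cd55 lie at 51.2% or more in both genotypes, and Serping1 at 1.80% in Lgr5-DTR-eGFP against 0.602% in wild type.

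Cd55, or decay-accelerating factor, takes apart the enzymes that cleave C3 and C5 on the cell's own membrane, and was the only one of the 9 with a mean of at least 7.80 FPKM in every group. Cd55 (NM_010016) lies on chromosome 1 at 130439030 to 130462740, and reads shared with its paralog Cd55b, which stayed below 1 FPKM in every library, make its level uncertain. In basal cells it measured 13.4, 23.3 and 14.3 FPKM in Lgr5-DTR-eGFP libraries, against 10.4, 5.41 and 7.64 FPKM in wild type libraries. The basal groups did not overlap, and the log2 difference was 1.03 (SE 0.27). Endothelial markers averaged 1.54 ± 0.41 on the log2(FPKM + 1) scale in Lgr5-DTR-eGFP basal cells and 1.04 ± 0.21 in wild type basal cells (10 markers, SD, n = 3 each), and macrophage markers 1.14 ± 0.09 and 0.84 ± 0.02 in that order. In the same order, 8 and 7 of the endothelial markers and 5 and 4 of the 13 macrophage markers reached 1 FPKM. The part of these markers in basal Cd55 was not tested.

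In luminal cells Cd55 measured 97.9, 70.35 and 22.2 FPKM in Lgr5-DTR-eGFP libraries, against 41.8, 23.6 and 17.3 FPKM in wild type libraries. The third Lgr5-DTR-eGFP library lay within the wild type range, and the log2 difference of 1.03 had an SE of 0.57. In stromal cells Cd55 measured 31.2, 52.2, 46.5 and 29.0 FPKM in Lgr5-DTR-eGFP libraries, against 61.4, 61.3 and 38.9 FPKM in wild type libraries. The stromal groups overlapped, with a log2 difference of -0.44 (SE 0.27).

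Set against all genes, the counts were as follows. In stromal cells 7 of the 9 genes passed the filter on low values, and 2 of them, C3 and C7, both lower in Lgr5-DTR-eGFP, passed limma's test at an adjusted p of 0.05, where 1.17% of 10689 tested genes passed in either direction and 1.1% were lower. C3, C7 and Serping1 had stromal groups that did not overlap, all lower in Lgr5-DTR-eGFP, where 9.39% of tested genes did so. In basal cells 3 were tested and Cd55 passed, higher in Lgr5-DTR-eGFP, where 11% of 9755 genes passed and 6.5% were higher. All 3 had basal groups that did not overlap, where 31.1% of genes did so. In luminal cells 3 were tested and 0 passed, where 3.14% of 10524 genes passed, and 1, Serping1, had groups that did not overlap, where 27.1% of genes did so. Because the choice of genes used these values, nothing is read from the counts. The basal Cd55 pass was lost in 6 of 13 alternative settings, among them those without Lgr5-DTR-eGFP basal replicate 2 or 3 or wild type basal replicate 2 or 3. The stromal C3 pass was lost without wild type stromal replicate 1 and also with no filter on low values.

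**Figure D3:**
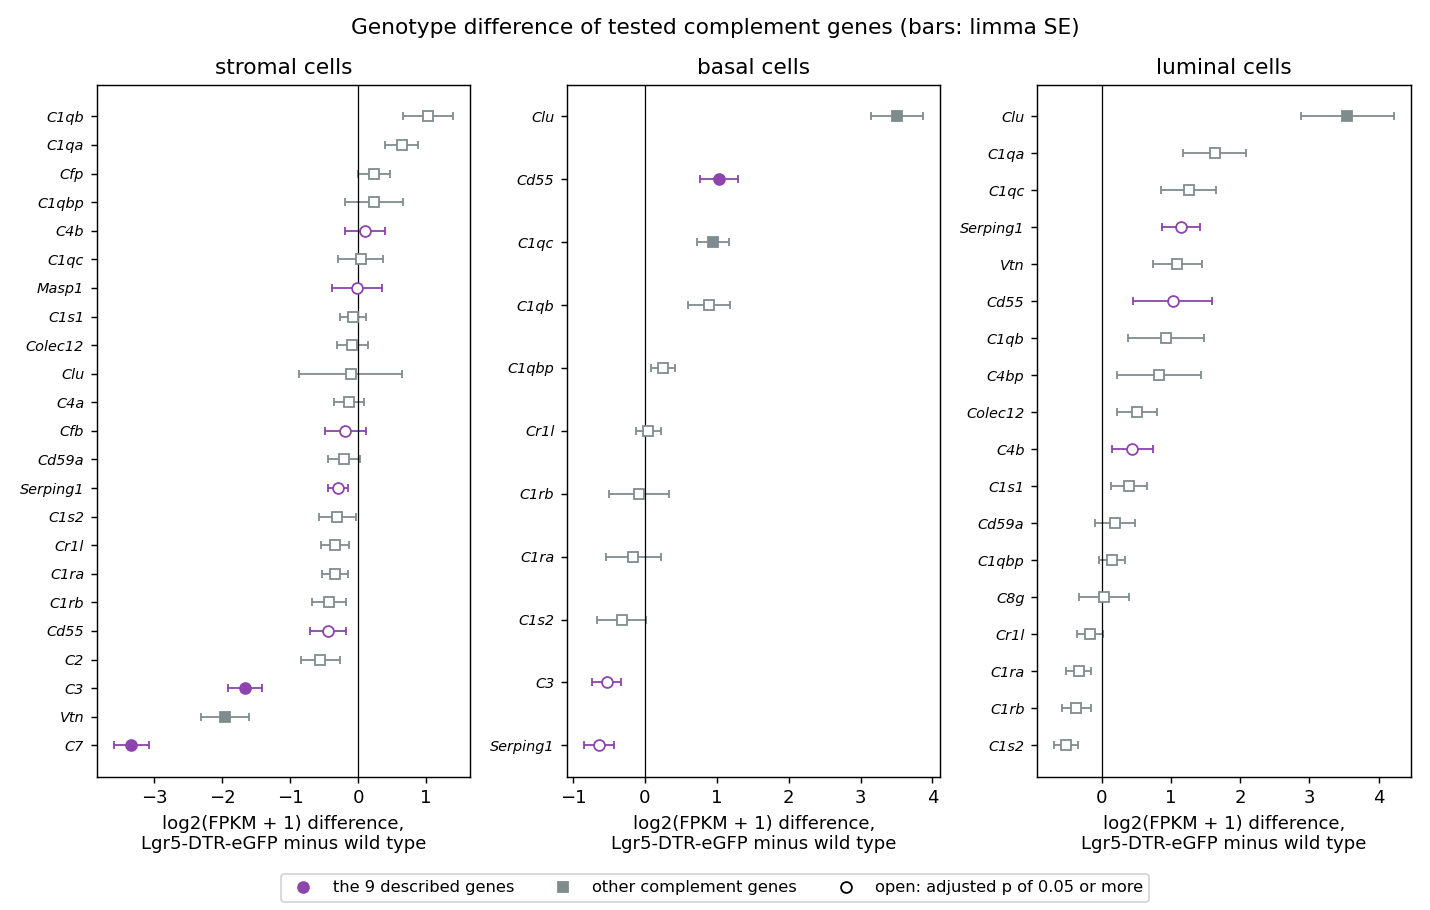
Difference in mean log2(FPKM + 1), Lgr5-DTR-eGFP minus wild type, of all complement genes that passed the filter on low values in each population (circles, the 9 described genes; squares, the others; filled where the limma adjusted p was below 0.05; bars, SE). Stromal C7 (-3.34), Vtn (-1.96) and C3 (-1.66) lie farthest below 0, and basal (3.51) and luminal (3.54) Clu farthest above it.

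The summed level of the 9 genes was 1447 ± 129 FPKM in Lgr5-DTR-eGFP stromal cells (SD, n = 4) and 1925 ± 41.7 FPKM in wild type stromal cells (SD, n = 3). Serping1 made up 90.1% of the sum in Lgr5-DTR-eGFP and 82.7% in wild type, where C7 followed with 6.00% and C3 with 5.38%. In basal cells the sum was 20.04 ± 5.44 FPKM in Lgr5-DTR-eGFP and 13.0 ± 2.69 FPKM in wild type (SD, n = 3 each), and Cd55 led with 84.8% and 59.96% in that order. In luminal cells it was 101.4 ± 37.5 FPKM in Lgr5-DTR-eGFP and 49.2 ± 10.9 FPKM in wild type (SD, n = 3 each), and Cd55 led again, with 62.6% and 56.0%. Among these 9 genes, a membrane inhibitor thus led the epithelial sums and a soluble one the stromal sum. The sums leave out the other complement genes. Clu, a secreted regulator described below, averaged 1500 FPKM in Lgr5-DTR-eGFP and 134 FPKM in wild type basal cells. In luminal cells Clu averaged 2411 FPKM in Lgr5-DTR-eGFP and 221 FPKM in wild type, where the protease gene C1rb averaged 2095 FPKM.

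Between wild type populations, C3, C7, Cfb, Masp1 and Serping1 were highest in stromal cells with no overlap with any epithelial library. Of all genes, 33.2% had stromal libraries that all lay above the basal ones, and 29.3% above the luminal ones. The order of C3 was stromal, basal and luminal, each range apart from the next, and that of Serping1 stromal, luminal and basal, also apart. The stromal minus luminal log2 difference was 7.24 for Serping1, 6.77 for C7 and 6.48 for C3, but 0.69 for C4b and 1.00 for Cd55, whose stromal and luminal ranges overlapped. All 7 tested genes passed the test between wild type stromal and basal cells, where 58.9% of all genes passed. Between stromal and luminal cells 6 of 7 passed, C4b being the exception, where 66.2% of all genes passed, and between basal and luminal cells 4 of 4 passed, where 68.8% did. Several of these genes passed the filter only through the population where they are high, so these counts add nothing to the levels.

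Genes with the most similar profile over the 6 group means were sought among 7001 genes by the root mean square difference of centred log2(FPKM + 1) values. For C7 the closest was Eln, the gene for elastin, at 0.18, with 17.0 FPKM in Lgr5-DTR-eGFP and 138 FPKM in wild type stromal cells, and next came Sult1e1, an estrogen sulfotransferase, at 0.54. For C3 the closest were Gsn (gelsolin, an actin-severing protein), at 0.25, and Ogn (osteoglycin, a matrix proteoglycan), at 0.35. Serping1 was closest to Ccl2, a monocyte chemokine, at 0.32, which had 19.2 FPKM in Lgr5-DTR-eGFP and 5.68 FPKM in wild type luminal cells, and to Gfpt2 at 0.48. Cd55 was closest to Eng, an endothelial TGF-beta co-receptor, at 0.19, and to Uap1l1 at 0.25. C4b was closest to Tac1 and Lhfpl2, Cfb to Tnfsf9 and Rspo3, and Masp1 to Olfml1 and Lipg, all at 0.26 or less. Cfd (Dnajc4, l7Rn6) and C6 (Rps19bp1, Clk2) were too near 0 for likeness to say much.

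Of the 48 other complement genes reported here, 24 reached 1 FPKM in at least 1 library. Those that did not included Mbl1 and Mbl2 (mannose-binding lectins), Masp2, Cfi (factor I, which cleaves C3b), Cr2, Vsig4 and the integrin receptor chains Itgam, Itgax and Itgb2. In stromal cells 16 were tested and 1 passed, Vtn, the gene for vitronectin, which binds the forming pore and keeps it out of membranes, where 1.17% of all genes passed. The median log2 difference of the 16 was -0.12, and that of all genes tested -0.09. Vtn measured 1.83, 2.61, 4.06 and 1.28 FPKM in Lgr5-DTR-eGFP stromal libraries, against 7.11, 12.2 and 18.6 FPKM in wild type stromal libraries. Its log2 level fell by 1.96 (SE 0.35, limma adjusted p = 0.0216), with every Lgr5-DTR-eGFP library below every wild type library. Over 13 alternatives its adjusted p ranged from 0.000289 to 0.115, and the call held in 9. The call was lost with no filter on low values, without Lgr5-DTR-eGFP stromal replicate 1 and without wild type stromal replicate 2 or 3. The part of the stromal fibroblast and smooth muscle markers given beside C3 in the Vtn value was not tested.

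C2 and the C1q chains did not pass the test in stromal cells. C2, the classical counterpart of factor B, measured 38.4 ± 11.5 FPKM in Lgr5-DTR-eGFP (SD, n = 4) and 56.5 ± 17.9 FPKM in wild type (SD, n = 3), a log2 difference of -0.55 (SE 0.29, limma adjusted p = 0.509). C1qa and C1qb, chains of the recognition molecule of the classical route that macrophages make, had log2 differences of 0.64 (SE 0.24, limma adjusted p = 0.321) and 1.03 (SE 0.37, limma adjusted p = 0.294). C1qc, a chain of the same molecule, had a log2 difference of 0.04 (SE 0.33, limma adjusted p = 0.991). C1qa was at most 0.930 FPKM in wild type stromal libraries, so it entered the test only through its Lgr5-DTR-eGFP libraries. These chains stayed at or below 4.83 FPKM in stromal cells.

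In basal cells 8 other complement genes were tested, where 11% of all genes passed. Clu passed, higher in Lgr5-DTR-eGFP, and so did C1qc, which entered the test only through its Lgr5-DTR-eGFP libraries. Clu, the gene for clusterin, a secreted chaperone that also blocks the forming pore, measured 905, 1800.3 and 1795 FPKM in Lgr5-DTR-eGFP basal libraries, against 207, 105 and 89.1 FPKM in wild type basal libraries. Its log2 level rose by 3.51 (SE 0.37, limma adjusted p = 0.00167) and passed in all 12 alternatives, with adjusted p from 0.000116 to 0.0320. C1qc measured 1.03, 1.76 and 1.06 FPKM in Lgr5-DTR-eGFP basal libraries, against 0.427, 0.0437 and 0.0849 FPKM in wild type (log2 difference 0.95, SE 0.23, limma adjusted p = 0.0321). With no wild type library at 1 FPKM, it could pass the filter on low values only by being higher in Lgr5-DTR-eGFP, so nothing is read from the call. The call was lost in 6 of 12 alternatives, among them no filter, where the adjusted p reached 0.143, and each of 4 libraries decided it, Lgr5-DTR-eGFP basal replicates 2 and 3 and wild type basal replicates 2 and 3. The 13 macrophage markers averaged 1.14 in Lgr5-DTR-eGFP and 0.84 in wild type basal cells, where 5 and 4 of them reached 1 FPKM in that order. Csf1r, Adgre1, Mrc1, Cd163, Cx3cr1, Fcgr1, Aif1 and Ptprc stayed below 1 FPKM in every basal library. The part of these markers in C1qc was not tested. C1qb had a log2 difference of 0.89 (SE 0.29, limma adjusted p = 0.0883) and C1qbp, a mitochondrial protein that binds C1q, 0.25 (SE 0.17, limma adjusted p = 0.366). The median of the 8 was 0.15 and that of all genes 0.02.

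In luminal cells 15 were tested and 1 passed, Clu, higher in Lgr5-DTR-eGFP, where 3.14% of all genes passed and 2.62% were higher. Clu measured 3600.1, 2667 and 967 FPKM in Lgr5-DTR-eGFP luminal libraries, against 430.2, 104 and 128 FPKM in wild type luminal libraries. Its log2 level rose by 3.54 (SE 0.67, limma adjusted p = 0.0459), with no overlap between groups. The call depended on single libraries. It was lost in 6 of 12 alternatives (adjusted p up to 0.240), among them those without Lgr5-DTR-eGFP luminal replicate 1 or 2 or wild type luminal replicate 2 or 3. It was also lost with the highest single transcript of each gene, a setting that is not among these 12.

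C1qa and C1qc had luminal log2 differences of 1.63 (SE 0.46, limma adjusted p = 0.0888) and 1.26 (SE 0.39, limma adjusted p = 0.111), and Vtn one of 1.09 (SE 0.36, limma adjusted p = 0.119). The second Lgr5-DTR-eGFP luminal library was the lowest of its group for both genes, at 2.16 FPKM for C1qa and 2.79 FPKM for C1qc. The 13 macrophage markers summed to 30.6 to 123 FPKM in Lgr5-DTR-eGFP luminal libraries and 20.02 to 25.5 FPKM in wild type luminal libraries, with 8 and 6 of them reaching 1 FPKM in that order, and their part in the C1q values was not tested. The median of the 15 luminal differences was 0.40 and that of all genes 0.10.

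The genotype difference of these genes was also compared between populations. Stromal and luminal cells differed for Vtn, by a log2 value of -3.05 (SE 0.53, limma adjusted p = 0.00649), 1 of 13 genes tested, where 2.51% of all genes passed. In luminal cells Vtn was at 4.79, 2.09 and 4.36 FPKM in Lgr5-DTR-eGFP libraries, against 0.445, 1.08 and 2.31 FPKM in wild type, so that its direction was opposite to that in stromal cells. The mean of the 14 fibroblast markers was likewise lower in stromal and higher in luminal cells of Lgr5-DTR-eGFP mice. Single markers went either way in luminal cells, where Gsn averaged 131 FPKM in Lgr5-DTR-eGFP and 157 FPKM in wild type. There, 8 of the 14 stayed below 1 FPKM in both genotypes. Luminal pericyte markers had a mean of 2.40 in Lgr5-DTR-eGFP and 1.67 in wild type, with overlapping ranges. The part of these markers in the Vtn values was not tested. The Vtn difference passed in all 19 alternatives, with adjusted p from 0.00286 to 0.0291. Between stromal and basal cells 0 of 8 passed in limma, with 2 at an unadjusted p under 0.05, where 2.98% of all genes passed. Between basal and luminal cells 0 of 8 passed in limma, with 0 at an unadjusted p under 0.05, where 4.26% of all genes passed.

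The classical proteases split by population in wild type mice. C1s1, one of the mouse C1s genes, measured 279 ± 24.4 FPKM in stromal cells, 10.5 ± 2.49 FPKM in luminal cells and 1.04 ± 0.166 FPKM in basal cells (SD, n = 3 each). Its paralog C1s2 measured 6.82 ± 2.68 FPKM in stromal, 488 ± 64.5 FPKM in luminal and 4.67 ± 0.951 FPKM in basal cells. C1rb, a C1r gene, was the most abundant of the C1r and C1s genes in luminal cells, at 2095 ± 322 FPKM, against 58.3 ± 10.8 FPKM in stromal and 19.9 ± 3.17 FPKM in basal cells. Stromal minus luminal, C1s1 was higher by 4.62 (SE 0.20, limma adjusted p = 1.41e-08) and C1s2 lower, at -6.01 (SE 0.24, limma adjusted p = 8.7e-09), and C1rb lower, at -5.15 (SE 0.20, limma adjusted p = 5.9e-09). Reads that the C1s and the C1r paralogs share make the split between copies uncertain.

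Across the list, 10 of 11 tested genes passed between wild type stromal and basal cells (8 higher in stromal, 2 lower), where 58.9% of all genes passed (30.1% higher, 28.9% lower). Between stromal and luminal cells 10 of 14 passed (4 higher in stromal, 6 lower), where 66.2% did (27.8% higher, 38.4% lower), and between basal and luminal cells 10 of 11 (1 higher in basal, 9 lower), where 68.8% did (28.2% higher, 40.5% lower). Several of these entered the test only through the population where they are high, so the counts add nothing to the levels. For such genes, C2 and Cd59a among them, nothing is read from the adjusted p-values below either. In wild type basal cells C2 averaged 0.122 FPKM, Vtn 0.0678 FPKM, Cd59a 0.113 FPKM and Colec12 0.742 FPKM, and in wild type luminal cells C2 averaged 0.370 FPKM. C2 and the scavenger receptor Colec12 were highest in stromal cells, with stromal minus luminal differences of 5.37 (SE 0.27, limma adjusted p = 3.82e-08) and 5.19 (SE 0.24, limma adjusted p = 2.17e-08). Vtn was higher in stromal than in luminal cells by 2.57 (SE 0.37, limma adjusted p = 0.000101). C1ra was higher in stromal than in basal cells by 5.06 (SE 0.19, limma adjusted p = 4.54e-08), and lower in basal than in luminal cells, at -6.14 (SE 0.19, limma adjusted p = 4.01e-10). The membrane inhibitors Cd59a, which blocks the last step of pore assembly, and Cr1l, the rodent Crry gene, were lower in basal than in luminal cells, at -2.58 (SE 0.23, limma adjusted p = 1.01e-06) and -1.38 (SE 0.19, limma adjusted p = 4.6e-05).

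**Figure D4:**
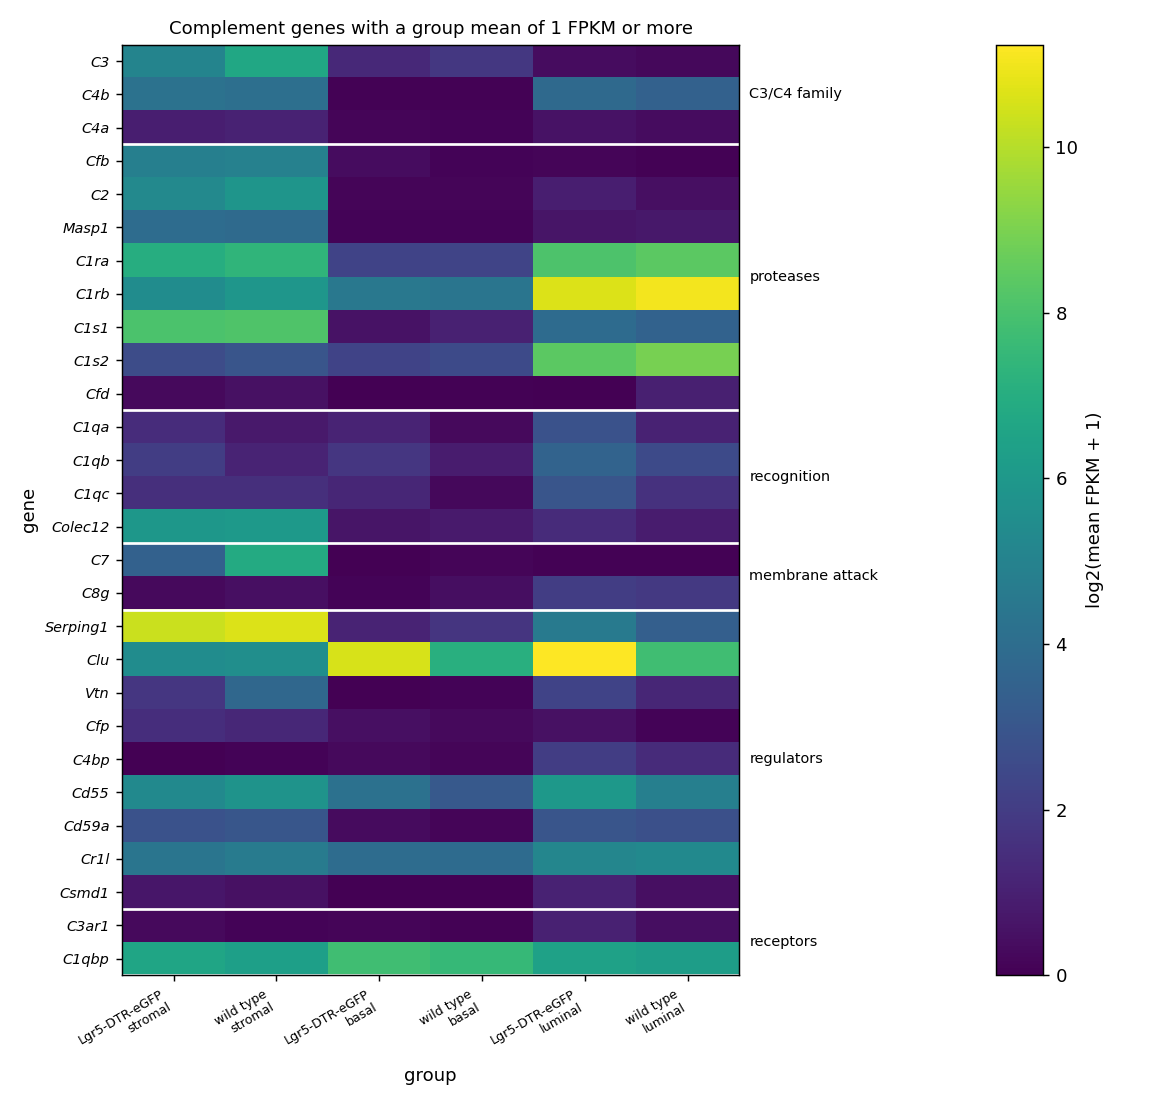
Mean level of complement genes that averaged 1 FPKM or more in some group, for all 6 groups, as log2(mean FPKM + 1) by colour, with genes in rows by role and Lgr5-DTR-eGFP left of wild type in each population. Clu is brightest in Lgr5-DTR-eGFP luminal cells, C1rb in both luminal groups and Serping1 in both stromal groups, while C7 is visible only in stromal cells.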

How the data were processed

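RNA of flow-sorted prostate cells was amplified with a low-input full-length kit, made into libraries by tagmentation and sequenced, per the labels' protocols. The authors deposited FPKM for each of 34535 RefSeq transcripts in 19 tables, made with TopHat2 and Cufflinks on mm10, per the submitters' processing notes (versions are not given in the sources used here). Coverage per transcript, a deposited read signal named in the file headers, served only for depth, as coverage times length. Counts were not analysed here, so no counting interval is given. An exact 0 may be an estimate that failed and is called "listed at 0".

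FPKM were summed per gene symbol. Genes were tested where at least 3 fitted libraries reached 1 FPKM, and genes with a failed or capped status were left out. Each comparison was fitted with limma 3.58.1 in R 4.3.3 (trend, robust) on log2(FPKM + 1), a scale that understates changes of low genes, and p-values were adjusted by Benjamini-Hochberg over all genes tested, with calls at 0.05. Differences between populations were interaction terms. Python 3.11.15 with numpy 2.4.6 and pandas 2.3.3 joined the tables. The fits were checked on simulated data.

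The 9 genes, the complement list, the marker lists and the alternatives were chosen with earlier results of these data known. Named genes were all 9 members. Of the list they were every called gene per genotype comparison, filled up to the 4 smallest p, the 6 smallest p per wild type comparison (those not named for one comparison passed as counted), and every called gene per interaction. Of the list, 1 gene is not reported here; of the other 53 symbols, 48 matched the tables and 5 did not. Alternatives were a pseudocount of 0.1, no filter, trimmed-mean (TMM) and quantile scaling, a replicate block, the processing set as covariate, the highest single transcript and leaving out each library. Replicate numbers were not used to pair libraries in the main fits. For each tested gene, the deviation of each library from its group mean was taken on the log2(FPKM + 1) scale. Between same-numbered Lgr5-DTR-eGFP and wild type libraries these deviations correlated at 0.38, 0.49 and -0.05 in stromal, -0.53, -0.23 and -0.40 in basal and 0.38, -0.12 and 0.26 in luminal cells. Between wild type populations the correlations lay between -0.22 and 0.26. These values have mixed signs and do not settle whether the numbers mark libraries that belong together.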

Additional observations from a re-analysis of the deposited data

Results flagged for a closer look

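Cfd stood apart in 1 of the 4 Lgr5-DTR-eGFP stromal libraries, replicate 4, at 0.926 FPKM, while the other 3 were listed at 0. This was 1 of 23 genes and groups looked at. With 3 of 4 libraries listed at 0, any signal in the remaining library is flagged. The rate of about 1 in 20 groups flagged by chance therefore does not apply here.

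The genotype difference of Vtn differed between stromal and luminal cells by -3.05 on the log2 scale, by limma's interaction test. Serping1 was lower in every Lgr5-DTR-eGFP stromal and basal library than in any wild type library of the same population, and higher in every Lgr5-DTR-eGFP luminal library (log2 difference 1.15 in luminal cells). These opposite directions, of luminal cells against stromal cells and of luminal cells against basal cells, were not tested.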

How the results depend on the processing

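Among the 9 genes in the genotype comparisons and the named genes of the list, no direction of a called value reversed under the alternatives followed. Other called values were not followed for a reversal. With no filter on low values, the calls among the 48 other complement genes numbered 0 in stromal cells, 1 in basal cells and 0 in luminal cells (1, 2 and 1 as reported), 17 between wild type stromal and basal cells (10), and 1 in the stromal-basal interaction (0). The calls among the 9 genes came to 1 in stromal and 0 in basal cells (2 and 1). In luminal cells the list gave 0 calls with a pseudocount of 0.1 and 0 with the highest single transcript. With a replicate block the list gave 2 calls for stromal cells, 1 for basal cells, 2 for luminal cells and 2 in the stromal-luminal interaction, and the 9 genes gave 0 in basal and 2 in luminal cells. Leaving out 1 library at a time gave 0 to 1 list calls in stromal, 1 to 2 in basal and 0 to 2 in luminal cells (2 without Lgr5-DTR-eGFP luminal replicate 2), and 0 to 1 in the stromal-basal interaction. For the 9 genes it gave 1 to 2, 0 to 2 and 0 to 1 in stromal, basal and luminal cells: Serping1 was gained in basal cells without Lgr5-DTR-eGFP replicate 1 and in luminal cells without Lgr5-DTR-eGFP replicate 2, and Cd55 in luminal cells without Lgr5-DTR-eGFP replicate 3. The stromal-basal interaction gained its 1 call without Lgr5-DTR-eGFP stromal replicate 1 or wild type stromal replicate 2. In luminal cells over all genes, the 276 higher and 54 lower calls became 230 and 150 with TMM scaling, and 143 and 71 with quantile scaling. Leaving out 1 library moved the counts over all genes from 330 to between 9 (without wild type luminal replicate 3) and 927 (without Lgr5-DTR-eGFP luminal replicate 3) in luminal cells. They moved from 1069 to between 337 (without wild type basal replicate 2) and 2264 (without Lgr5-DTR-eGFP basal replicate 1) in basal cells, and from 125 to between 45 (without wild type stromal replicate 3) and 229 (without Lgr5-DTR-eGFP stromal replicate 4) in stromal cells. Every stromal library, every basal library but wild type replicate 1, and Lgr5-DTR-eGFP luminal replicates 1 and 3 and wild type luminal replicates 2 and 3 moved these counts by over 1.5 times. The same counts in stromal, basal and luminal cells were 36, 492 and 4 with no filter, 1041, 213 and 755 with a replicate block and 49, 771 and 750 with the processing set as covariate, and 78 and 76 in stromal cells with TMM and quantile scaling and 214 in luminal cells with quantile scaling. The shares of all genes printed beside the members' counts move with them. The cause of these shifts was not tested. Genes near 0 FPKM, C6 and Cfd among them, could not be compared.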
